A study of Mus musculus with 10 samples.

Results

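Formative and primed epiblast genes are switched on as mouse pluripotent cells leave the naive state of the early blastocyst and take on the character of the epiblast around implantation. The set described here holds 9 genes picked by name for that role, Fgf5, Fgf15, Otx2, Pou3f1, Zic2, Zic5, Sall2, Nes and Cdh2, among the 20325 genes of the deposited table. The choice was made with earlier results of these data known. All 9 are in the table, and 8 of them were abundant enough to be tested. Fgf5 was not.

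Embryonic stem cells held with inhibitors of MEK and GSK3 and with LIF stay close to the naive state. FGF signalling through ERK moves them towards the formative state, in which Otx2 and Pou3f1 come up and Fgf5 is the classical marker, and later primed epiblast cells carry more of the genes of the neural plate. DAXX is the chaperone that places the histone variant H3.3 at repeats and silenced regions, and the study asked how DAXX and H3.3 act on transcription with and without each other.

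Polyadenylated RNA was sequenced from 5 mouse embryonic stem cell lines with 2 libraries each. The line called DaxxKO is Daxx-/- in the 129/SvEv strain, and the line called DaxxWT is DaxxKO with a FLAG-tagged mouse DAXX transgene. The line called H3.3KO lacks both genes for H3.3, H3f3a and H3f3b, on a 129 x C57BL/6J background. From it come H3.3 WT, with a FLAG-HA-tagged wild-type H3.3 transgene, and H3.3 L126A-L130A, with a mutant that binds DAXX but is not built into nucleosomes. All lines grew without feeders on gelatin in LIF with the GSK3 inhibitor CHIR99021 at 3 µM and the MEK inhibitor PD0325901 at 1 µM. Transgenes came in by lentivirus under an EF1 promoter with puromycin selection, and each knockout is 1 line made in another laboratory, with no unmutated parent line of either background in the series. The samples are described as biological replicates without saying whether they were separate cultures, so every p-value below measures only the spread between these samples. Library totals ran from 15463625 to 21396585 expected counts, with a median of 17362425, and levels are given in CPM, the counts of a gene in every 1000000 of its library after scaling between libraries.

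The targeted genes were read first as a check on the labels. Daxx stood at 82.6 and 72.9 CPM in DaxxKO, at 206 in both DaxxWT libraries, at 61.9 and 61.5 in H3.3KO, at 62.3 and 59.4 in H3.3 WT, and at 101 and 67.5 in H3.3 L126A-L130A. H3f3a stood at 492 and 382 CPM in DaxxKO and at 486 and 494 in DaxxWT. In the H3.3 lines H3f3a ran from 2.85 to 10.9 CPM. H3f3b stood at 313 and 380 CPM in DaxxKO, 116 and 84.4 in DaxxWT, 509 and 720 in H3.3KO, 204 and 139 in H3.3 WT, and 386 and 324 in H3.3 L126A-L130A. So H3f3a was low in the lines labelled as lacking it, but Daxx in DaxxKO was not below its level in H3.3KO, and H3f3b was highest in H3.3KO. The knockouts of Daxx and H3f3b are therefore not visible in the totals of these genes. Nor are the H3.3 transgenes. H3f3a averaged 3.99 CPM in H3.3 WT and 4.05 in H3.3 L126A-L130A against 8.07 in H3.3KO. H3f3b averaged 172 and 355 CPM in these lines against 615 in H3.3KO. The table does not give the exons that reads came from, and whether these transcripts carry the lesions was not tested. These are RNA totals, and the study also has protein evidence on such cells. Its immunoblots found no H3.3 in H3.3 KO cells and far less DAXX, which both H3.3 transgenes stabilized. Of the naive and core pluripotency genes, Pou5f1 stood at 929 to 1310, Zfp42 at 540 to 966, Nanog at 516 to 968, Esrrb at 568 to 889 and Sox2 at 203 to 515 CPM over the 10 libraries, while Dppa3 ran from 6.79 to 156 and Nr0b1 from 14.3 to 121.

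A gene was tested when it reached 1 CPM in at least 2 libraries, which kept 13201 genes, and was called when its adjusted p (Benjamini-Hochberg over all 13201) was under 0.05 and its fold change at least 2. In H3.3KO against DaxxKO, 2 of the 8 tested genes were called, Otx2 lower and Zic2 higher, where 11.7 % of all tested genes were called, 5.71 % higher and 5.98 % lower. By adjusted p alone it was 3 genes, Nes being the other, where the background was 23.7 %. In H3.3 WT against DaxxWT, 1 of 8 was called, Otx2 lower, against a background of 8.45 %, of which 5.13 % were higher and 3.33 % lower. By adjusted p alone it was 2, Otx2 and Nes, against 17.7 %. With 8 genes these counts are too small to be read as a result about the set, and what follows concerns the single genes. The count in H3.3KO against DaxxKO became 3 without DaxxKO replicate 1, with Zic5 added, where calls of all genes went from 1543 to 2097, and 1 without DaxxKO replicate 2 or without any 1 of the H3.3KO or H3.3 WT libraries, which left Otx2. The count in H3.3 WT against DaxxWT became 4 without DaxxKO replicate 1 and 4 without DaxxKO replicate 2, with Fgf15, Pou3f1 and Zic5 added, where calls of all genes went from 1116 to 1387 and 1396. Fgf15 reached 1 CPM only in the lines with an H3.3 transgene, so its calls in H3.3 WT against DaxxWT are not independent of that filter. Strain and knockout cannot be told apart in either of these comparisons between lines, nor can the transgene in the second.

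Within a background, no member was called when a transgene was added. In DaxxWT against DaxxKO, edgeR called 0 of 8 where it called 1.08 % of all genes, and 1 member, Pou3f1, had an unadjusted p under 0.05, as it did by DESeq2 and by limma. In H3.3 WT against H3.3KO, edgeR called 0 of 8 against 0.25 % of all genes, and 2 members, Fgf15 and Sall2, had an unadjusted p under 0.05, as by limma, while DESeq2 gave 3 by adding Zic2. Fgf15 reached 1 CPM only in the lines with an H3.3 transgene, so its p-value there is not independent of the filter. In H3.3 L126A-L130A against H3.3KO, edgeR called 0 against 0.788 %, with 0 members at an unadjusted p under 0.05 by edgeR, DESeq2 or limma. In H3.3 L126A-L130A against H3.3 WT, edgeR called 0 against 0.515 %, with Sall2 the 1 member at an unadjusted p under 0.05 by each of the 3 tools. DESeq2 and limma also called 0 members in all 4. Over all 13201 genes, edgeR gave an unadjusted p under 0.05 for 2881, 1759, 2232 and 1627 in that order. Against that background the members' counts are too small to be read as a result about the set. Comparisons within the H3.3 background share libraries and are not independent of each other.

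The 2 transgene effects were also set against each other directly. The DAXX effect in DaxxKO cells and the wild-type H3.3 effect in H3.3KO cells differed, by adjusted p, for 0 of the 8 members and for 0.0455 % of all genes. Zic2 was the 1 member with an unadjusted p under 0.05, by edgeR, DESeq2 and limma alike. By edgeR, 1839 of all 13201 genes had one. The DAXX effect and the mutant H3.3 effect differed, by adjusted p, for 0 of the 8 members and for 0.0227 % of all genes. There, 0 members had an unadjusted p under 0.05 by any of the 3 tools, and 1482 of all genes had one by edgeR.

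**Figure D1:**
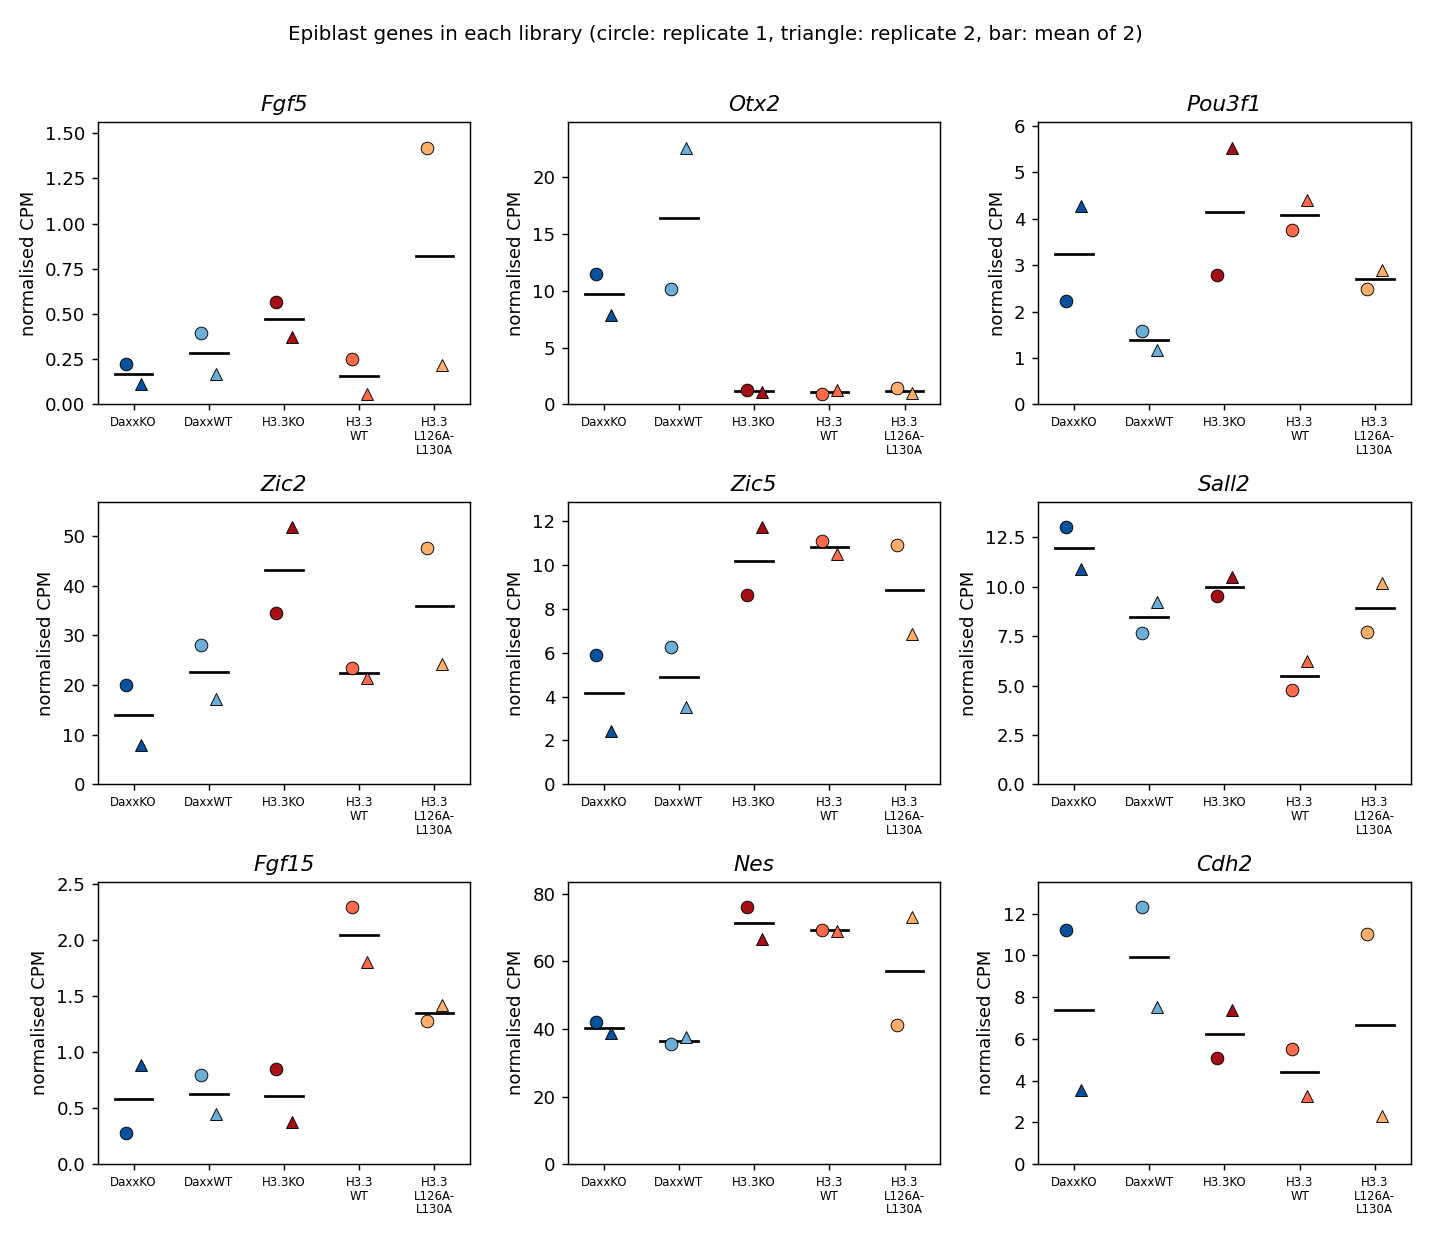
Level of each of the 9 genes in CPM (vertical axes, each with its own range starting at 0) by line, with circles for replicate 1, triangles for replicate 2 and a bar at the mean. Otx2 sits between 7.88 and 22.6 CPM in the Daxx lines and between 0.889 and 1.42 in the H3.3 lines, while Fgf5 passes 1 CPM in a single library.

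Of the ligands, Fgf5 is the secreted factor by which formative epiblast is usually recognised. It had 4 and 2 counts in DaxxKO, 8 and 3 in DaxxWT, 10 and 6 in H3.3KO, 4 and 1 in H3.3 WT, and 21 and 4 in H3.3 L126A-L130A, or 0.0581 to 1.42 CPM. Only the 21 counts of H3.3 L126A-L130A replicate 1, with a Poisson interval of 13 to 32.1, lay above 1 CPM, and from the highest line mean to the lowest every pair of neighbouring lines overlapped. Such intervals cover counting error only. Tested without the filter on low values, Fgf5 had adjusted p-values from 0.39 to 0.761 in the 6 comparisons. At this depth, 3 counts correspond to 0.149 to 0.202 CPM. Fgf5 had 1 to 21 counts a library, and no difference was detected in the 6 comparisons tested.

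Fgf15, a ligand of the developing neural tube and gut, also had few counts. It stood at 0.277 and 0.888 CPM in DaxxKO, 0.793 and 0.449 in DaxxWT, 0.85 and 0.373 in H3.3KO, 2.29 and 1.8 in H3.3 WT, and 1.28 and 1.42 in H3.3 L126A-L130A. Both H3.3 WT libraries lay above both mutant ones, those lay above every library of the remaining lines, and the remaining lines overlapped. Fgf15 passed the filter of 1 CPM in 2 libraries only through the lines with an H3.3 transgene, where it was highest. Tests of those lines against the remaining ones are therefore not independent of the filter, and their p-values should be read with that. H3.3 WT against H3.3KO gave a log2 fold change of 1.72 (SE 0.65, 2 libraries a line) with an adjusted p of 0.298, and the counts behind it are 36 and 31 against 15 and 6. The value with mutant H3.3 was 1.13, with an adjusted p of 0.427. Without H3.3KO replicate 1 these became 2.43 and 1.84, and without H3.3KO replicate 2 they became 1.26 and 0.67. Against DaxxWT, H3.3 WT was at 1.7 (SE 0.64) with an adjusted p of 0.097, which passed the threshold without DaxxKO replicate 1 or replicate 2 and when the pair of lines was fitted alone, and ranged from 0.0313 to 0.308 over 17 alternatives. The antisense genes Gm26793 and Gm39119 share 761 and 26 exon bases with Fgf15 in GENCODE, and since the kit is not stated to mark the strand, reads from both would be counted together.

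Otx2, the homeodomain factor that directs the exit from the naive state and later patterns the head, gave the widest separation of the set. It stood at 11.5 and 7.88 CPM in DaxxKO and at 10.2 and 22.6 in DaxxWT. It stood at 1.3 and 1.12 CPM in H3.3KO, 0.889 and 1.28 in H3.3 WT, and 1.42 and 1.04 in H3.3 L126A-L130A. The lowest library of the Daxx lines, at 7.88 CPM, was above the highest of the H3.3 lines, at 1.42, while inside each background neighbouring lines overlapped. The 6 H3.3 libraries held 14 to 23 counts each and the 4 Daxx libraries 142 to 403. In GENCODE, Otx2os1 on the other strand shares 154 exon bases with Otx2 and Gm49154 on the same strand 168. Neither is in the table, and reads from them could not be counted apart.

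Otx2 was 7.95-fold lower in H3.3KO than in DaxxKO (log2 fold change -2.99, SE 0.46, adjusted p 0.00347, 2 libraries a line). It was 15-fold lower in H3.3 WT than in DaxxWT (log2 fold change -3.91, SE 0.48, adjusted p 0.00225). Both calls held in all 18 alternatives, with log2 fold changes from -3.24 to -2.25 and adjusted p-values from 2.67e-07 to 0.04 in the first comparison. In the second the ranges were -4.38 to -2.97 and 1.32e-11 to 0.0323. Without DaxxWT replicate 2, the library at 22.6 CPM, the second value was -3.22 (adjusted p 0.0124). Fewer cells expressing a gene and less RNA per cell cannot be told apart in these bulk libraries.

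Adding DAXX to DaxxKO cells left Otx2 inside the spread of its replicates. Mean levels were 16.4 ± 8.81 CPM (SD, n = 2) with the transgene and 9.68 ± 2.55 without, a log2 fold change of 0.76 (SE 0.41) with an adjusted p of 0.311. That value was 0.07 without DaxxWT replicate 2 and 1.23 without DaxxWT replicate 1, with adjusted p-values from 0.173 to 0.943 over 18 alternatives. In H3.3KO cells neither H3.3 transgene moved the mean beyond 1.08 to 1.23 CPM.

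The genes whose levels ran most like those of Otx2 over the 10 libraries, by Pearson's r on log2(CPM + 1), were Tagap (0.983), BC053749 (0.98) and Kbtbd11 (0.976). These r describe points that fall into 2 backgrounds. Tagap ran from 6.82 to 10.1 CPM in the Daxx lines and from 0 to 0.202 in the H3.3 lines, Kbtbd11 from 10.6 to 18.7 and from 0.572 to 1.55, and BC053749 from 9.87 to 13.5 and from 6.29 to 7.65.

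Otx2 has 4 annotated starts in the RefSeq promoter table, and a gene's total does not say which one was used. The start printed here is the 1 of the 4 whose 300 bases hold the OTX motif TAATCC, searched on both strands, at chr14:48665060-48665359 on the minus strand of GRCm38.p6. Capitals mark the reverse complement GGATTA, and this motif occurs in 7.06 % of the 32851 promoters of that length, a rate for 1 promoter and not for 1 picked from 4, so no enrichment was tested. The other 3 starts do not hold the motif and have 6, 8 and 11 CG dinucleotides, and 1 of them holds the TATA letters. The Nes promoter is set beside it because Nes differed between the same lines in the other direction, and it lies at chr3:87970843-87971142 on the plus strand.
Otx2: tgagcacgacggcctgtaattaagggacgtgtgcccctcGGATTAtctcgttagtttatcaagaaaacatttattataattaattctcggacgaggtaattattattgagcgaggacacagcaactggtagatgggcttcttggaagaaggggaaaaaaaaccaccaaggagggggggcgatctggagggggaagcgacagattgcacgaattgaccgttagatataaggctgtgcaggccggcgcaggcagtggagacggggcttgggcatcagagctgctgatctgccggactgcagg
Nes: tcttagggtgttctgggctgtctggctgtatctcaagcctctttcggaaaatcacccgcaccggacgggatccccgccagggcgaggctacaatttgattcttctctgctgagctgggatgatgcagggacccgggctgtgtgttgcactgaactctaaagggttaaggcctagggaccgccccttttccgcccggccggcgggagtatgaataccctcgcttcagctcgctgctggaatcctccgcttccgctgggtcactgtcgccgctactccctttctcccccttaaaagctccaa
The Otx2 stretch has 16 CG dinucleotides and the Nes stretch 18, where the median promoter has 7. Beside the OTX motif, both stretches were searched for the TCF/LEF letters CTTTGA, which 16 % of all promoters hold, and CTTTGT, which 18.7 % hold. The octamer ATGCAAAT, in 1.74 % of promoters, and the TATA letters TATAAA, in 13.6 %, were searched too, and none of these others is in either stretch. The Nes stretch does not hold the OTX motif. A match describes the letters and not a bound site. Promoters of 5 members are in the table, those of Fgf5, Otx2, Zic5, Sall2 and Nes, and Zic2, Pou3f1 and Fgf15 have none there. That of Cdh2 was not analysed here.

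Pou3f1, the POU factor Oct6 of the early epiblast and of neural and glial precursors, was low in every line. It stood at 2.22 and 4.27 CPM in DaxxKO, 1.59 and 1.18 in DaxxWT, 2.78 and 5.53 in H3.3KO, 3.75 and 4.41 in H3.3 WT, and 2.49 and 2.9 in H3.3 L126A-L130A. DaxxWT lay below all other libraries, and the other 4 lines overlapped from neighbour to neighbour. Against DaxxKO, DaxxWT was at a log2 fold change of -1.22 (SE 0.48, p 0.0304, edgeR) with an adjusted p of 0.185. That value was -0.68 (adjusted p 0.568) without DaxxKO replicate 2 and -1.62 (adjusted p 0.0577) without replicate 1. Against DaxxWT, H3.3 WT was at 1.55 (SE 0.48), 4.08 against 1.38 CPM, with an adjusted p of 0.0539. DESeq2 called it at 0.0272, as did the fits with the replicate block, of the pair alone, without DaxxKO replicate 1 and without DaxxKO replicate 2, and over 17 alternatives the adjusted p ran from 0.0158 to 0.22. With mutant H3.3, Pou3f1 was at -0.62 against H3.3KO (adjusted p 0.55), a value of -0.04 without H3.3KO replicate 2 and -1.03 without replicate 1, and at -0.59 against H3.3 WT (adjusted p 0.707). An antisense gene, Gm2164, shares 330 exon bases with Pou3f1 and could not be counted apart.

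Zic2 and Zic5 are zinc finger factors that sit head to head on chromosome 14, their starts 9758 bases apart in GRCm38, and act in the primed epiblast and the neural folds. Zic2 stood at 19.9 and 7.93 CPM in DaxxKO, 28.1 and 17.1 in DaxxWT, 34.4 and 51.7 in H3.3KO, 23.4 and 21.3 in H3.3 WT, and 47.5 and 24.2 in H3.3 L126A-L130A. H3.3KO was highest on average and DaxxKO lowest, and the only neighbours in the order that did not overlap were H3.3 WT and DaxxKO. Zic2 was 3.1-fold higher in H3.3KO than in DaxxKO, at 43.1 ± 12.3 against 13.9 ± 8.43 CPM (log2 fold change 1.63, SE 0.47, adjusted p 0.0352).

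That call depended on single libraries. It ended without DaxxKO replicate 2 (1.12, adjusted p 0.113), H3.3KO replicate 1 (1.9, adjusted p 0.0693) or H3.3KO replicate 2 (1.31, adjusted p 0.18). It also ended without H3.3 WT replicate 1 (adjusted p 0.0583) or replicate 2 (adjusted p 0.0573), libraries that enter only through the shared estimate of spread, and when the pair of lines was fitted alone (adjusted p 0.0698). Without DaxxKO replicate 1 the log2 fold change was 2.44 (adjusted p 0.00971). It was called in 12 of 18 alternatives, with adjusted p-values from 0.00253 to 0.18.

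In H3.3 WT Zic2 averaged 22.3 ± 1.54 CPM, a log2 fold change against H3.3KO of -0.95 (SE 0.46) with an adjusted p of 0.421, or -0.62 without H3.3KO replicate 2. That adjusted p ran from 0.0362 to 0.891 over 18 alternatives, none of which called the gene. With the transgenes in both backgrounds the Zic2 means were 22.3 and 22.6 CPM. The DAXX effect minus the wild-type H3.3 effect on Zic2 was 1.65 (SE 0.65, p 0.0318, edgeR), with an adjusted p of 0.314 that ran from 0.0652 to 0.74 over 17 alternatives, so the effects of the transgenes on Zic2 were not shown to differ. Over the 10 libraries the genes with the highest Pearson's r to Zic2 were Ppt1 (0.974), Dgcr14 (0.963) and 4930453N24Rik (0.949). An r does not compare the size of changes. Ppt1 ran from 29 to 48.8 CPM in the Daxx lines and from 43.4 to 56.8 in the H3.3 lines. Dgcr14 ran from 26.5 to 35.9 and from 32.5 to 37.9, and 4930453N24Rik from 24.4 to 52.6 and from 42.8 to 78.2. Zic2 itself ran from 7.93 to 28.1 and from 21.3 to 51.7.

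Zic5 stood at 5.88 and 2.44 CPM in DaxxKO, 6.24 and 3.54 in DaxxWT, 8.61 and 11.7 in H3.3KO, 11.1 and 10.5 in H3.3 WT, and 10.9 and 6.84 in H3.3 L126A-L130A. All 6 H3.3 libraries lay above all 4 Daxx libraries, if narrowly, 6.84 against 6.24 CPM at the boundary, and lines of the same background overlapped. Log2 fold changes were 1.29 (SE 0.46, adjusted p 0.0718) in H3.3KO against DaxxKO and 1.14 (SE 0.46, adjusted p 0.113) in H3.3 WT against DaxxWT, neither called. DESeq2 and limma called the first, as did scaling by library size alone, the replicate block and the fit without DaxxKO replicate 1 (2.05), while it was 0.79 without DaxxKO replicate 2, and its adjusted p ran from 0.0168 to 0.277 over 18 alternatives. The second was called with the replicate block, in the pair alone and without either DaxxKO library, and ran from 0.0246 to 0.367. Per kb of merged exon Zic2 was the more abundant of the pair in each line, at 4.82 against 0.851 CPM per kb in DaxxKO and 15 against 2.08 in H3.3KO.

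Sall2, a zinc finger factor of the spalt family found in epiblast and neural progenitors, kept to a narrow range. It stood at 13 and 10.9 CPM in DaxxKO, 7.68 and 9.21 in DaxxWT, 9.52 and 10.5 in H3.3KO, 4.76 and 6.22 in H3.3 WT, and 7.69 and 10.2 in H3.3 L126A-L130A. Each wild-type transgene line lay below its own knockout, and H3.3 WT lay below all other libraries. The log2 fold change with wild-type H3.3 was -0.86 (SE 0.27, p 0.0105, edgeR), with an adjusted p of 0.233 and 10 against 5.49 CPM. Mutant H3.3 against wild-type H3.3 gave 0.7 (SE 0.27, p 0.0281, edgeR), with an adjusted p of 0.331. H3.3 WT against DaxxWT gave -0.62 (adjusted p 0.138).

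**Figure D2:**
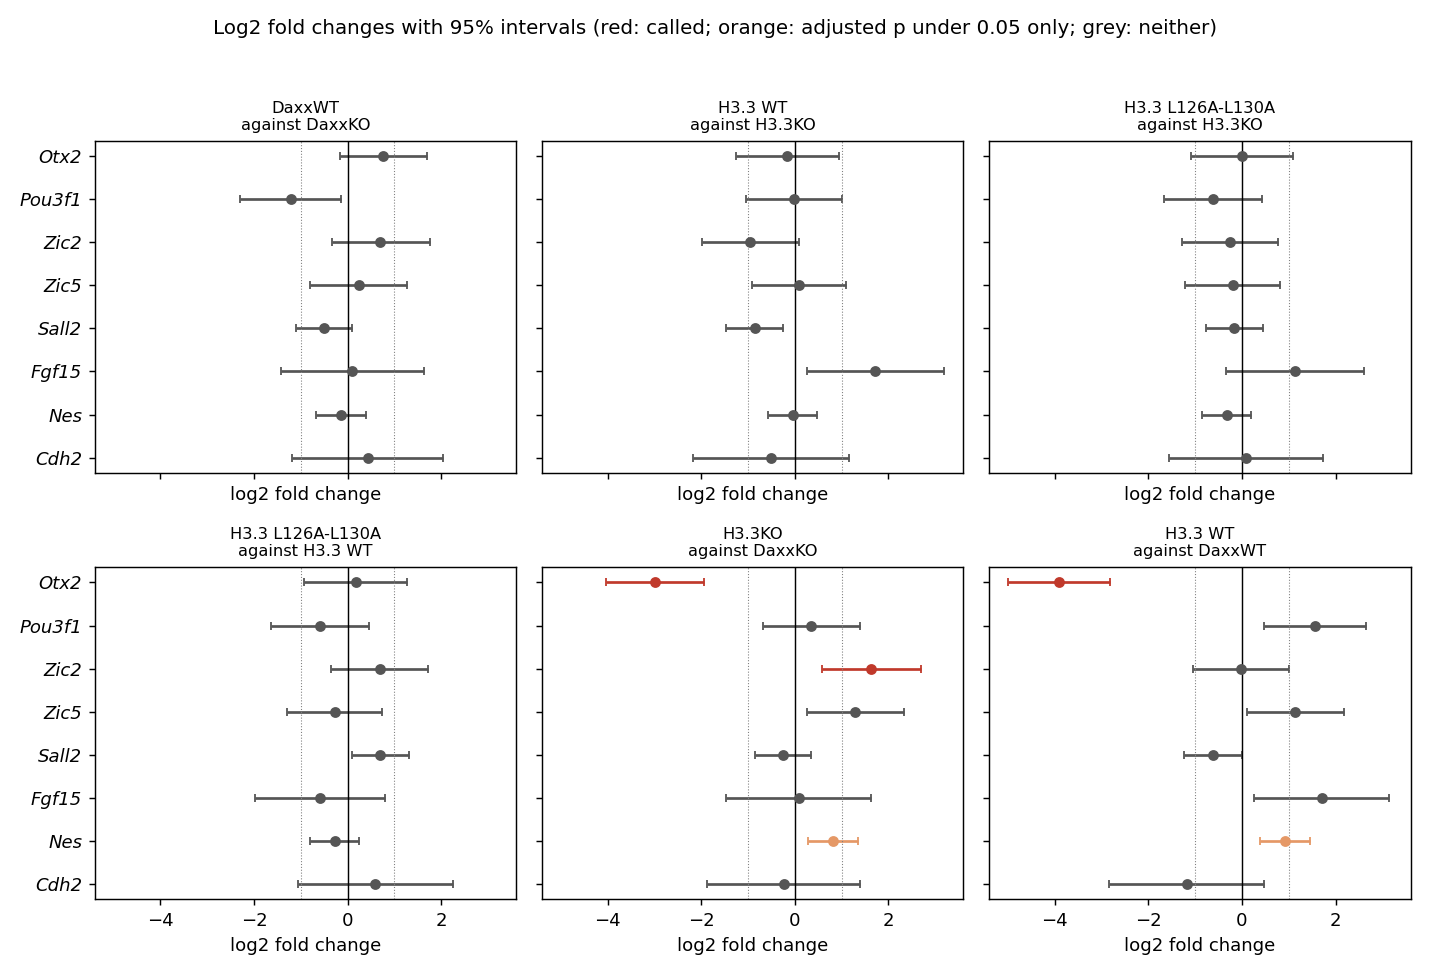
Log2 fold change of the 8 tested genes in each of the 6 comparisons (horizontal axes), as points with 95 % intervals, red where called and orange where the adjusted p alone was under 0.05, with dotted lines at a fold change of 2 either way. Otx2 lies at -2.99 and -3.91 in the comparisons between backgrounds, and no point of the 4 transgene comparisons is coloured.

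Nes encodes nestin, an intermediate filament protein of neural stem cells that epiblast cells also make. It stood at 42 and 38.8 CPM in DaxxKO, 35.4 and 37.7 in DaxxWT, 76 and 66.6 in H3.3KO, 69.4 and 69 in H3.3 WT, and 41.1 and 73 in H3.3 L126A-L130A. H3.3KO and H3.3 WT lay wholly above the Daxx lines, whereas H3.3 L126A-L130A replicate 1 was at their level. The log2 fold changes were 0.82 (SE 0.23, 1.77-fold, adjusted p 0.035) in H3.3KO against DaxxKO and 0.92 (SE 0.24, 1.89-fold, adjusted p 0.0288) in H3.3 WT against DaxxWT. Both missed the required 2-fold and were not called. The first adjusted p ran from 0.00665 to 0.153, under 0.05 in 9 of 18 alternatives, and the second from 0.00224 to 0.163, under 0.05 in 14 of 18.

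Cdh2 encodes N-cadherin, the cadherin of neural and mesenchymal tissue that primed epiblast cells begin to make beside E-cadherin. It stood at 11.2 and 3.55 CPM in DaxxKO, 12.3 and 7.52 in DaxxWT, 5.1 and 7.39 in H3.3KO, 5.53 and 3.25 in H3.3 WT, and 11 and 2.3 in H3.3 L126A-L130A. Replicates of 1 line differed up to 4.78-fold, as in H3.3 L126A-L130A, and every pair of neighbouring lines overlapped. Its unadjusted p was above 0.05 in every comparison, and the only fit that called it was that of H3.3 WT and DaxxWT alone.

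Cdh1, which encodes the E-cadherin of naive and epithelial cells, stood at 761 and 766 CPM in DaxxKO and at 543 and 660 in DaxxWT. In the 6 H3.3 libraries it ran from 310 to 407 CPM. Its log2 fold changes of -0.96 (adjusted p 0.00303) and -0.9 (adjusted p 0.00531) in the comparisons between backgrounds also missed 2-fold. They became calls without H3.3KO replicate 1 (-1.01) in the first and without DaxxWT replicate 1 (-1.04) in the second, and their adjusted p-values ran up to 0.0358 and 0.0562 over 18 alternatives each. Epcam, an adhesion gene of the same list, was called lower with each wild-type transgene (-1.64, adjusted p 0.0231, in DaxxWT against DaxxKO and -1.94, adjusted p 0.02, in H3.3 WT against H3.3KO) and higher with mutant than with wild-type H3.3 (2.12, adjusted p 0.0153). The first of these calls ended without DaxxWT replicate 1 (-1.41) or 2 (-1.92) or either H3.3 WT library (-1.64), and with the pair fitted alone (-1.63, adjusted p 0.173). The second ended without H3.3KO replicate 1 (-1.93) or 2 (-1.95) or H3.3 WT replicate 1 (-1.84) or 2 (-2.04), and the third without H3.3 WT replicate 1 (2.02) or 2 (2.22) or H3.3 L126A-L130A replicate 1 (2.06). Vim (-2.17, adjusted p 0.0383) and Snai1 (-1.66, adjusted p 0.0382) were called lower in H3.3 WT against DaxxWT. Both calls ended without either replicate of DaxxWT, H3.3KO or H3.3 WT, with log2 fold changes from -2.58 to -1.61 for Vim and -1.71 to -1.61 for Snai1, and that of Snai1 also with scaling by library size alone (-1.6, adjusted p 0.051).

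The summed level of the 9 genes was 106 and 76.8 CPM in DaxxKO, 103 and 99.5 in DaxxWT, 139 and 155 in H3.3KO, 121 and 118 in H3.3 WT, and 125 and 122 in H3.3 L126A-L130A. Nes had the most counts of the members in 9 of the 10 libraries and carries much of that sum. The exception is H3.3 L126A-L130A replicate 1, with 705 counts of Zic2 and 609 of Nes. Per kb of merged exon the order was different in H3.3KO, where Zic2 had 15 CPM per kb and Nes 11.1, with Zic5 at 2.08, Sall2 at 1.84, Pou3f1 at 1.08, Cdh2 at 0.774, Otx2 at 0.287, Fgf15 at 0.2 and Fgf5 at 0.188. In DaxxKO it was Nes at 6.3, Zic2 at 4.82, Otx2 at 2.29 and Sall2 at 2.2. Lengths are of merged exons in GENCODE, which need not be the transcripts present.

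How far replicates of a line differed in these genes was not tested against genes of like abundance, and low counts widen such differences. The median absolute log2 difference between replicates was 0.638 over the tested members and 0.363 over all genes in DaxxKO, 0.474 and 0.217 in DaxxWT, and 0.418 and 0.176 in H3.3KO. It was 0.21 and 0.159 in H3.3 WT, and 0.484 and 0.267 in H3.3 L126A-L130A. Zic2, Zic5 and Cdh2 had the same sign as one another in each line. The log2 ratio of replicate 1 to replicate 2 for Zic2 was 1.32 in DaxxKO, 0.72 in DaxxWT, -0.59 in H3.3KO, 0.14 in H3.3 WT and 0.97 in H3.3 L126A-L130A. For Zic5 it was 1.27, 0.82, -0.45, 0.09 and 0.67 in that order, and for Cdh2 1.66, 0.71, -0.54, 0.76 and 2.26. Nes, by contrast, stayed within 0.19 of equality except in H3.3 L126A-L130A, at -0.83.

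**Figure D3:**
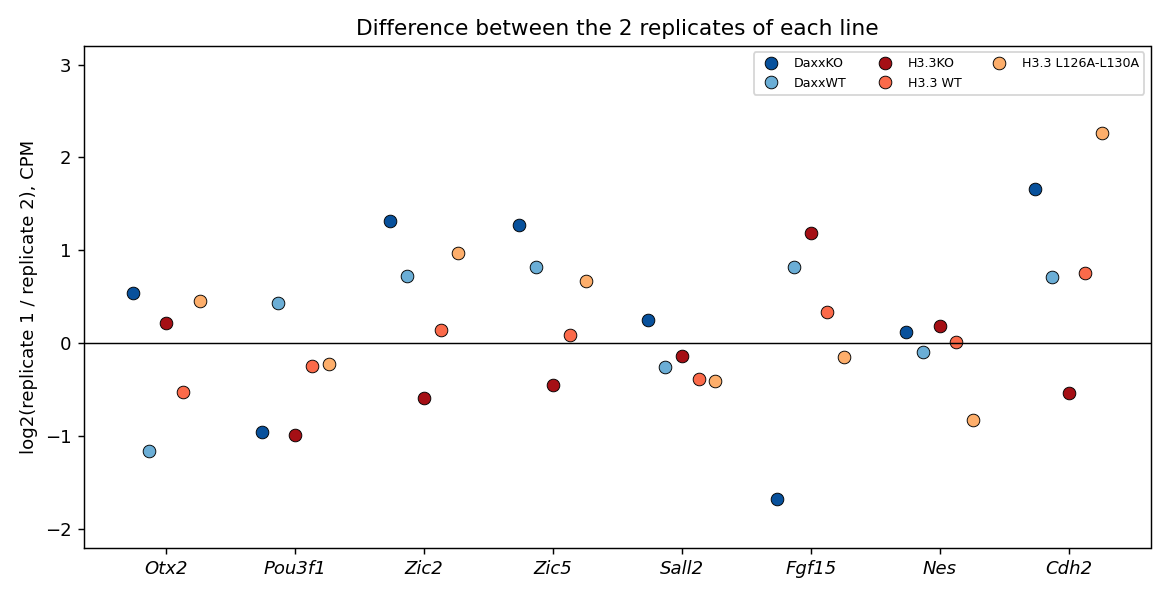
Log2 ratio of the level in replicate 1 to that in replicate 2 (vertical axis) for the 8 tested genes (horizontal axis), with a point in its own colour for each of the 5 lines. Zic2, Zic5 and Cdh2 lie above 0 in 4 lines and below 0 in H3.3KO, and Cdh2 in H3.3 L126A-L130A is farthest from 0 at 2.26.

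Some genes that ERK switches on also differed between replicates, Egr1 and Spry4 among them, while Fgfr1, Spry2 and Spred1 stayed within 0.45 (log2) of equality in each line, and Dusp4 was lower in replicate 1 than in replicate 2 of every line (-2.41 in DaxxKO to -0.06 in H3.3 WT). Egr1, an immediate early gene, stood at 94 and 1.66 CPM in DaxxKO, 70.7 and 1.85 in DaxxWT, 64.6 and 3.54 in H3.3KO, 20.6 and 23.9 in H3.3 WT, and 13.9 and 3.72 in H3.3 L126A-L130A. Spry4 stood at 53.7 CPM in H3.3 L126A-L130A replicate 1 and 13.1 in replicate 2, the pair in which Fgf5 had 21 and 4 counts and Dnmt3b 279 and 98.7 CPM. In the other lines Spry4 stood at 3.66 and 1.28 CPM in DaxxKO, 16.6 and 3.37 in DaxxWT, 5.78 and 7.7 in H3.3KO, and 7.69 and 4.12 in H3.3 WT. These genes were singled out from the lists after their values had been seen, and what part the state of a culture had in the levels of the epiblast genes was not tested.

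Of the 14 FGF receptor and ERK genes tested, 1 was called higher (Spry2) and 1 lower (Fgfr1) in H3.3KO against DaxxKO, where 11.7 % of all genes were called. Between H3.3 WT and DaxxWT 1 was called, again Spry2 and again higher, where 8.45 % of all genes were called. Spry2, a feedback inhibitor of the pathway, stood at 17.7 to 25.8 CPM in the 4 Daxx libraries and 46.9 to 72.2 in the 6 H3.3 libraries, with log2 fold changes of 1.5 (adjusted p 0.00135) and 1.38 (adjusted p 0.00228), called in 18 of 18 alternatives each. Fgfr1, the main FGF receptor of these cells, averaged 70.6 CPM in H3.3KO and 141 in DaxxKO, a log2 fold change of -1 (adjusted p 0.00519) at the very edge of the 2-fold requirement. It fell short of it without DaxxKO replicate 1 (-0.93), H3.3KO replicate 1 (-0.91) or H3.3 L126A-L130A replicate 1 (-1), and with TMM scaling (-0.98), library size alone (-0.92), limma (-0.99), no filter or the replicate block (-1 each), while its adjusted p ran from 5.6e-06 to 0.046. The list's medians were -0.15 and -0.42. None of the 14 was called in the 4 transgene comparisons by edgeR, where 3, 0, 1 and 4 had an unadjusted p under 0.05. Of all 13201 genes, 1.08, 0.25, 0.788 and 0.515 % were called. In the same order, 2881, 1759, 2232 and 1627 of them had an unadjusted p under 0.05.

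As a list, the 8 tested members had median log2 fold changes of 0.17 in DaxxWT against DaxxKO, -0.1 in H3.3 WT against H3.3KO, -0.18 in H3.3 L126A-L130A against H3.3KO, and -0.05 in H3.3 L126A-L130A against H3.3 WT. The medians of all 13201 genes were -0.02, 0.02, 0.03 and 0. In H3.3KO against DaxxKO the members' median was 0.22, with 5 above 0 and 3 below, and in H3.3 WT against DaxxWT it was 0.45, with 4 above and 4 below, where all genes gave -0.02 and 0.

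A separate list of other epiblast genes holds none of the members. With 11 in the table and 9 tested, it had medians of -0.05 and -0.36 in the same 2 comparisons. In the first 1 gene was called higher, Foxd3, and 0 lower, where 5.71 % of all genes were called higher and 5.98 % lower. In the other edgeR called 0 of 9, with 2 at an unadjusted p under 0.05. Of all 13201 genes it called 8.45 %, and 4559 had an unadjusted p under 0.05. Foxd3, a forkhead factor needed to keep epiblast cells, stood at 11.2 and 4.44 CPM in DaxxKO and 17.1 and 33.3 in H3.3KO (log2 fold change 1.68, adjusted p 0.0245). Its call ended without DaxxKO replicate 2 (1.17, adjusted p 0.0675) or H3.3KO replicate 2 (1.13, adjusted p 0.166) and with the pair fitted alone (1.68, adjusted p 0.0908), became 2.5 without DaxxKO replicate 1, and held in 15 of 18 alternatives, with adjusted p-values from 0.000964 to 0.166. Dnmt3a, Dnmt3b, Utf1 and Tead2 of that list each stood above 43 CPM in all 10 libraries.

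Naive genes, 14 tested, had medians of 0.38 and 0.4, with 3 called higher and 0 lower in each of the 2 comparisons, where 5.71 and 5.13 % of all genes were called higher. The list as a whole was not tested. They were Klf5, Tbx3 and Tet2 in H3.3KO against DaxxKO, and Klf4, Klf5 and Dppa3 in H3.3 WT against DaxxWT. Klf4 stood at 144 to 187 CPM in the Daxx libraries and 341 to 416 in the H3.3 libraries, and Klf5 at 40.3 to 66.3 and 115 to 148, so that both were high in the lines in which Otx2 was low. The log2 fold changes of Klf4 and Klf5 in H3.3 WT against DaxxWT were 1.31 (adjusted p 0.00124) and 1.49 (adjusted p 0.000708), each called in 18 of 18 alternatives. In H3.3KO against DaxxKO, calls of Klf5 (0.94), Tbx3 (0.83) and Tet2 (0.73) ended without H3.3KO replicate 2, that of Tet2 also without DaxxKO replicate 2 (0.74) and with the pair fitted alone (1.07, adjusted p 0.0838). The call of Dppa3 ended without either replicate of DaxxWT, H3.3KO or H3.3 WT, with log2 fold changes from 1.49 to 2.22. Dppa3 was also called lower in DaxxWT against DaxxKO (-3.6, adjusted p 0.0244), which ended without DaxxWT replicate 1 (-3.28) or 2 (-4) or H3.3 WT replicate 1 (-3.59) or 2 (-3.6), and with the pair fitted alone (-3.59, adjusted p 0.131). Over all fits with a library left out that value ran from -4.12 to -2.78. Summed over the 14 genes in the table, naive genes stood at 3120 to 3570 CPM in the Daxx libraries and 4070 to 4970 in the H3.3 libraries.

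**Figure D4:**
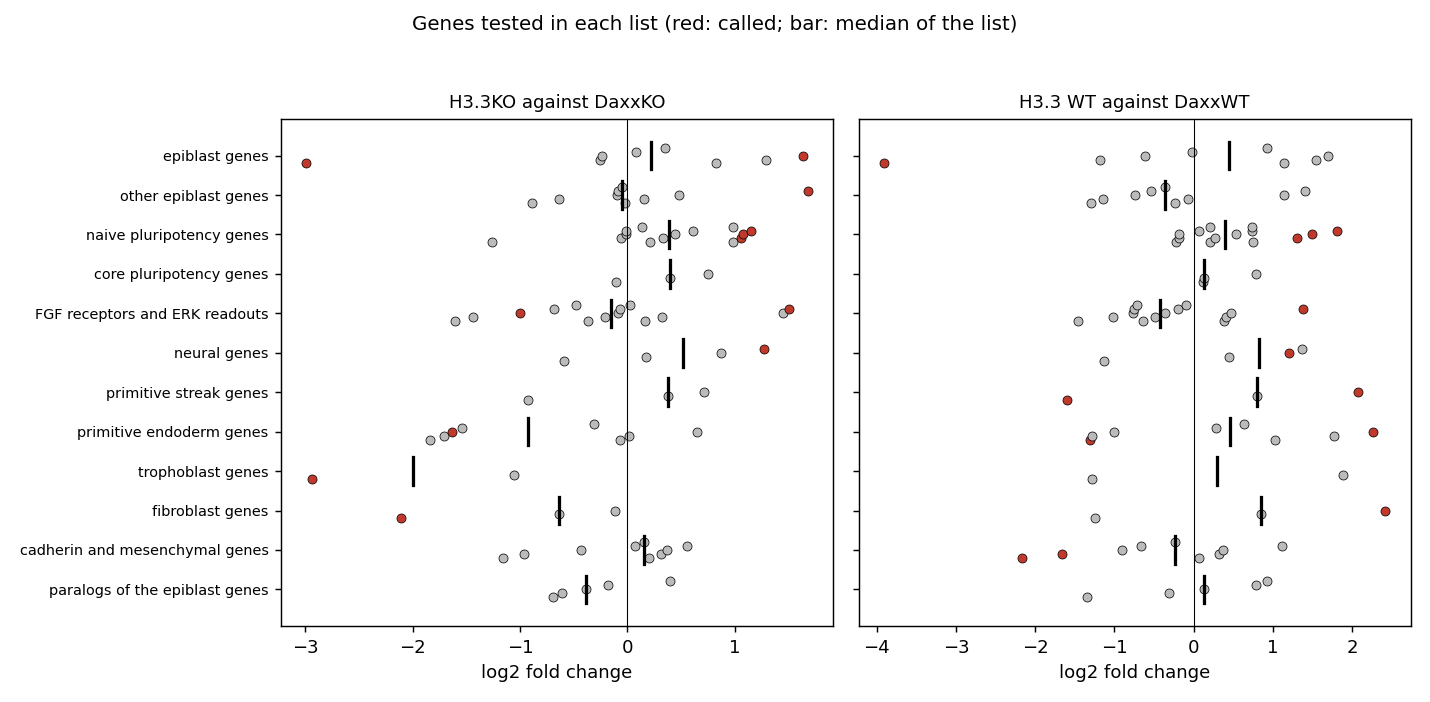
Log2 fold change (horizontal axes) of each tested gene in the epiblast set and 11 other lists in the 2 comparisons between backgrounds, red where called, with a bar at each list's median. Otx2 is the called point far left among the epiblast genes, and the medians of the naive genes are 0.38 and 0.4.

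Of the paralogs of the members listed for comparison, 9 are in the table and 5 were tested, and edgeR called 0 of 5 in each of the 6 comparisons. The share of all genes called ran from 0.25 to 11.7 %, so with 5 genes these counts are no result about the paralogs. Sall4 stood at 89.2 to 250 CPM, while Otx1 stood at 1.49 to 5.1 with no separation of the backgrounds. Zic4 and Pou3f4 had at most 1 count in any library.

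The lists of other cell types were read for cells that had left pluripotency. Of the 11 neural genes measured, 4 passed the filter. Summed over the 11 genes, they stood at 59 to 250 CPM in the 4 Daxx libraries and at 89.9 to 154 in the 6 H3.3 libraries. Tubb3 had the most counts on average, at 38.9 to 215 CPM in the Daxx libraries and 33.4 to 75.3 in the H3.3 libraries. Sox1 stood at 2.22 to 4.15 and 2.44 to 9.76 CPM. Ncam1 was called higher in both comparisons between backgrounds (1.27, adjusted p 0.0043, and 1.2, adjusted p 0.00689), the second call ending without DaxxWT replicate 1 (1.12, adjusted p 0.0665) or H3.3 WT replicate 2 (1.11, adjusted p 0.0602). Dcx and Fabp7 had 0 counts in all H3.3 libraries and at most 1 in any Daxx library, and Neurog2 at most 3.

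Of 10 primitive streak genes 3 were tested, with a summed level of 12.9 to 28 CPM over the 10 libraries and the most counts from Eomes. Eomes, like Otx2 a gene of the epiblast on its way to the streak, stood at 11.9 to 23.6 CPM in the Daxx lines, 6.45 to 8.2 in H3.3KO and H3.3 WT, and 17.8 and 13.9 in H3.3 L126A-L130A. Eomes was called lower (-1.6, adjusted p 0.00639) and Gsc higher (2.08, adjusted p 0.0185) in H3.3 WT against DaxxWT. The call of Eomes ended without H3.3 WT replicate 2 (-1.45, adjusted p 0.0681). That of Gsc ended without DaxxWT replicate 1 (1.58, adjusted p 0.127) or without H3.3 WT replicate 1 (2.28, adjusted p 0.0683) or 2 (1.86, adjusted p 0.117). Cer1 and Lhx1 had at most 2 counts in any library.

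Primitive endoderm genes, 9 in the table and 8 tested, summed to 73.3 and 145 CPM in DaxxKO, 79.9 and 114 in DaxxWT, 77.7 and 115 in H3.3KO, 174 and 242 in H3.3 WT, and 91.2 and 159 in H3.3 L126A-L130A, with the most counts on average from Lama1. Col4a1 was called lower in H3.3KO against DaxxKO (-1.63, adjusted p 0.00614), in all 18 alternatives too, and in H3.3 WT against DaxxWT (-1.31, adjusted p 0.0167), where the call ended without DaxxWT replicate 1 (-1.39) or 2 (-1.23) or H3.3 WT replicate 1 (-1.12) or 2 (-1.53). It was also called lower with mutant H3.3, against H3.3KO (-1.7, adjusted p 0.0454) and against H3.3 WT (-2.11, adjusted p 0.0333). The first of these ended without any 1 library of DaxxWT, H3.3KO, H3.3 WT or H3.3 L126A-L130A (-2 to -1.31), and the second without any 1 of DaxxWT, H3.3 WT or H3.3 L126A-L130A (-2.32 to -1.89). Both also ended with scaling by library size alone (adjusted p 0.0601 and 0.0554) and with the pair fitted alone (0.0869 and 0.0642), and the first with a mean of at least 5 CPM (0.0549). Lama1 was called higher in H3.3 WT against DaxxWT (2.26, adjusted p 0.0152), but not without DaxxWT replicate 1 (1.84) or H3.3 WT replicate 1 (2.49) or 2 (1.99).

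Trophoblast genes, 6 in the table and 2 tested, summed to 2.02 to 23.1 CPM, with the most counts on average from Krt7 and the highest sum in DaxxKO replicate 2, the library with the lowest Zic2. Fibroblast genes, 8 in the table and 3 tested, summed to 13.5 to 47.5 CPM in the Daxx lines and 6.47 to 14.2 in the H3.3 lines, of which Thy1 was 11.6 to 36.1 and 3.24 to 7.66, while Dcn, Lum, Col3a1 and Postn had at most 3 counts in any library. Ascl2 (-2.94, adjusted p 0.031) and Thy1 (-2.11, adjusted p 0.0084) were called lower in H3.3KO against DaxxKO and Col1a1 higher in H3.3 WT against DaxxWT (2.42, adjusted p 0.0181). The call of Ascl2 ended without DaxxKO replicate 2 (-1.71), H3.3KO replicate 1 (-3.6) or 2 (-2.49) or either H3.3 WT library (-2.94) and with the pair fitted alone (-2.95, adjusted p 0.0675), that of Thy1 without H3.3KO replicate 2 (-1.98), and that of Col1a1 without DaxxWT replicate 1 (2.01) or H3.3 WT replicate 1 (2.6) or 2 (2.21). The part of other cell types in the levels of the epiblast genes was not tested.

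The number of all genes called is itself sensitive to single libraries, and the shares given for it should be read with that. In DaxxWT against DaxxKO 143 genes were called, and 1074 without DaxxKO replicate 1, 48 without DaxxKO replicate 2, 1 without either DaxxWT library, 57 and 60 without H3.3KO replicates 1 and 2, and 14 without either H3.3 WT library. In H3.3 WT against H3.3KO 33 were called, and 61 without either DaxxKO library, 21 without DaxxWT replicate 2 or either H3.3 L126A-L130A library, and 2 or 3 without any library of the pair compared. In H3.3 L126A-L130A against H3.3KO 104 were called, and 227 and 231 without DaxxKO replicates 1 and 2, 39 and 38 without those of DaxxWT, 20 and 9 without those of H3.3KO, 22 and 23 without those of H3.3 WT, and 2 without H3.3 L126A-L130A replicate 1. In H3.3 L126A-L130A against H3.3 WT 68 were called, and 15 without either DaxxWT library, 26 and 28 without H3.3KO replicates 1 and 2, 2 and 1 without those of H3.3 WT, and 0 without H3.3 L126A-L130A replicate 1. In H3.3KO against DaxxKO 1543 were called, and 938 and 706 without H3.3KO replicates 1 and 2. In H3.3 WT against DaxxWT 1116 were called, and 364 without DaxxWT replicate 1, and 418 and 369 without H3.3 WT replicates 1 and 2. Members called in the 4 transgene comparisons stayed at 0 in every one of these fits.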

How the data were processed

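Per the submitters' processing notes, the authors mapped reads to mm9 with Bowtie and quantified genes with RSEM; versions were not stated. The deposited table is named for TPM but holds an expected count per gene and library: 61.4 to 67.6 % of values are whole and library totals are 15463625 to 21396585. Counts were rounded, genes reaching 1 CPM in 2 or more libraries kept (13201 of 20325), libraries scaled by relative log expression, and all 10 libraries fitted together with edgeR 4.0.16 (quasi-likelihood, 1 coefficient per line; R 4.3.3), a gene being called at an adjusted p under 0.05 and at least 2-fold. On simulated counts the fit called 22 of 66 genes with a log2 change of 1, 55 of 66 with 2 and 67 of 68 with 3, and 5 genes without a change. The changes were put only into the H3.3KO libraries, in genes above a minimum mean level, and read in H3.3KO against DaxxKO. These rates need not hold for rarer genes or for the other comparisons. Standard errors are the absolute log2 fold change over the square root of F. An exact permutation test of 2 against 2 cannot give a p below 0.33. Alternatives were TMM scaling, library size alone, DESeq2 1.42.0, limma 3.58.1 on log2(CPM + 1), no filter, a mean of at least 5 CPM, a replicate block, each comparison alone, and each library left out. The members and lists were chosen with earlier results of these data known. A gene of the comparison lists is not reported here and was taken out of them. Genes named for likeness are the 3 with the highest Pearson's r to Otx2 and to Zic2, the members called. Positions, lengths and overlaps are from GENCODE on GRCm38, not the mm9 of the mapping, and promoters from RefSeq. Figures were drawn with matplotlib 3.10.9 in Python 3.11.15.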

Additional observations from a re-analysis of the deposited data

How the results depend on the processing

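Lines have 2 libraries each, so a fit without a library leaves a lone sample that is assumed to vary like the other lines. Of 48 fold changes of members, 21 had the other sign in at least 1 alternative; the largest of those was 0.59 (log2) and the lowest p 0.2, and no fold change printed above changed sign. Members called stayed at 0 in all 18 alternatives of the 4 transgene comparisons and all 17 of both differences between transgene effects, which have no fit of the comparison alone. In H3.3KO against DaxxKO they were 3 by DESeq2, limma, library size alone and the replicate block, 1 in the comparison alone and 1 to 3 with a library left out. In H3.3 WT against DaxxWT they were 2 by DESeq2, 3 with the replicate block, 5 alone and 1 to 4 with a library left out. For all genes called, in DaxxWT against DaxxKO (143) DESeq2 gave 531, limma 240, no filter 233, the replicate block 621, the comparison alone 1, and left-out libraries 1 to 1074. In H3.3 WT against H3.3KO (33) the values were 213, 55, 53, 105 and 330 in that order, and 2 to 61. In H3.3 L126A-L130A against H3.3KO (104) they were 444, 173, 203, 461 and 29, and 2 to 231. In H3.3 L126A-L130A against H3.3 WT (68) library size alone gave 39, DESeq2 323, no filter 125, a mean of at least 5 CPM 38, the replicate block 234, the comparison alone 18, and left-out libraries 0 to 102. In H3.3KO against DaxxKO (1543) the comparison alone gave 859 and left-out libraries 706 to 2097, and in H3.3 WT against DaxxWT (1116) DESeq2 gave 1382, the replicate block 1569, the comparison alone 1630 and left-out libraries 364 to 1396. The cause was not tested. Changes in the members' counts between fits rest on 8 genes and were not tested against those over all genes. They are no result about the set. Replicate numbers are not stated to be shared batches: differences between replicates correlated from -0.04 to 0.57 between lines. With replicate number as a block, Otx2 kept log2 fold changes of -3 and -3.89, and Zic5 was called in both comparisons between backgrounds and Pou3f1 in the second. Among members' printed fold changes, 188 of the values with a library left out kept their side of the threshold, 7 became calls and 5 ceased to be; under the other settings it was 141, 10 and 1. Pou3f1 and Fgf15 fall under a mean of 5 CPM and have no value there. Scaling moved the median of all genes by at most 0.09 (log2).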
